A study of Mus musculus with 12 samples.

Results

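The genes described here are 9 costimulatory and checkpoint genes of antigen-presenting cells, *Cd80*, *Cd86*, *Cd40*, *Cd83*, *Cd274*, *Pdcd1lg2*, *Icosl*, *Tnfsf9* and *Havcr2*. They were taken from the count files by symbol, and all 9 were found among 26699 genes and passed the filter on low counts that left 11927 genes for testing. Explants of whole synovium from C57BL/6 wild-type mice (C57BL/6J background in the methods) were cultured for 4 h. They received calcitonin gene-related peptide (CGRP, 100 nM), a neuropeptide released by nociceptor neurons, or, as controls, vehicle. The vehicle is named in the methods, while the sample names call the control libraries Healthy. The tissue was digested with collagenase, and both kinds of MHCII+ macrophages were sorted for bulk RNA-seq. Cells without CD11c are called the IAIE subset and cells with CD11c the CD11c subset, as in the sample names. The 4 groups, IAIE control, IAIE CGRP, CD11c control and CD11c CGRP, had 3 libraries each, 12 in all. CGRP was added to the intact explant, so every cell type of the synovium was exposed before the sort. Neither the labels nor the methods say whether a library held 1 mouse or a pool, or give the sex and age of the mice behind a library beyond the study's use of both sexes, so p-values measure only the spread between these libraries.

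T cells that meet antigen on MHC molecules need further signals from the presenting cell. CD80 and CD86 bind CD28 and CTLA-4 on T cells, ICOSL binds ICOS, 4-1BBL (encoded by *Tnfsf9*) binds 4-1BB, and the receptor CD40 is engaged by CD40L, which licenses the presenting cell. PD-L1 (*Cd274*) and PD-L2 (*Pdcd1lg2*) bind the inhibitory receptor PD-1, CD83 marks mature dendritic cells and keeps MHCII and CD86 at the cell surface, and TIM-3 (*Havcr2*) is itself a checkpoint receptor, which myeloid cells carry too.

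Library totals ranged from 2127191 to 5649698 counts, and 3 counts, taken as the floor of detection, corresponded to 0.534 to 1.34 CPM (counts per 1000000 of the TMM library size). *Itgax*, which encodes CD11c, was at 237 ± 29.0 CPM in CD11c control and 6.19 ± 4.76 CPM in IAIE control libraries (mean ± SD, n = 3). With CGRP it was lower in CD11c libraries, at 115.5 ± 7.33 CPM without overlap (log2 fold change -1.03, edgeR adjusted p 0.0288). In IAIE CGRP libraries it was at 5.38 ± 3.94 CPM. The part of this fall of a sort marker in the CGRP results was not tested. All 9 macrophage markers examined, *Csf1r* and *Cd68* among them, were detected in both subsets, with summed levels of 5959 to 7869 CPM in IAIE control and 2462 to 2968 CPM in CD11c control libraries. The 10 dendritic cell markers examined were detected as well, and their sum was higher in the CD11c control libraries (687 to 794 CPM) than in the IAIE control libraries (271 to 295 CPM). Of the 9 tested, 4 were higher and 1 lower in the CD11c control libraries. With CGRP the dendritic cell sum lay at 158 to 171 CPM in IAIE libraries and at 737 to 839 CPM in CD11c libraries, where single markers moved in opposite directions. Of the 9 dendritic cell markers tested, 1 rose and 3 fell in CD11c cells (median log2 fold change -0.68) and 2 fell in IAIE cells (median -0.50). The marker that rose in CD11c cells was *Ccr7* (240.0 to 576 CPM), and those that fell were *Cd209a* (297.5 to 79.3 CPM), *Dpp4* (24.5 to 5.87 CPM) and *Flt3* (18.6 to 4.46 CPM), named after their values were seen. The 8 B cell markers summed to 66.4 to 137 CPM in IAIE control against 30.2 to 53.9 CPM in IAIE CGRP libraries, and to 11.6 to 17.8 CPM against 1.96 to 7.86 CPM in CD11c libraries. The 10 fibroblast markers summed to 207 to 277 CPM in CD11c control and 467 to 771 CPM in CD11c CGRP libraries, where 3 of 8 tested rose. *Pdpn* made up most of the CD11c control sum, at 252.5, 184 and 171 CPM, and was at 409, 317 and 386 CPM in CD11c CGRP libraries. In IAIE cells the sum, 359 to 1561 CPM without and 570 to 2206 CPM with CGRP, did not follow most of its members, since 1 marker rose and 3 fell (median -1.82). There *Pdpn* rose (176 to 578 CPM) and *Prg4* reached 1433 CPM in CGRP replicate 1, while *Col1a1* (266 to 32.5 CPM) and *Col3a1* (163 to 28.4 CPM) fell with overlapping libraries. The 6 mural cell markers summed to 25.7 to 32.6 CPM in CD11c control and 55.5 to 357 CPM in CD11c CGRP libraries. T cell markers, of which 7 were in the files, summed to at most 11.2 CPM and NK cell markers to at most 7.01 CPM in any library, while neutrophil markers reached 192, mast cell markers 141 and endothelial markers 183 CPM. No listed marker in the files was at 0 in all 12 libraries. The part of these cells in the results below was not tested, and in bulk RNA fewer cells of a type and less RNA per cell cannot be told apart.

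The first question was which of the 9 genes respond to CGRP in each subset. *Cd274* rose in both subsets, *Pdcd1lg2* rose in the CD11c subset, and *Cd83* and *Icosl* fell in both. In the IAIE subset 3 of the 9 genes passed an adjusted p of 0.05 (edgeR quasi-likelihood test, Benjamini-Hochberg adjustment over all genes tested), 1 higher and 2 lower, where 9.21% of all genes tested passed. In the CD11c subset 4 passed, 2 in each direction, against 10.9% of all genes. Averaged over both subsets 5 passed, *Havcr2* being the additional gene, against 17.9% of all genes. Libraries of the control and CGRP groups did not overlap for 3 of the 9 genes in the IAIE subset, where 24.9% of all genes did not, and for 5 in the CD11c subset, where 29.2% did not. The median log2 fold change of the 9 genes was 0.02 in the IAIE subset and 0.18 in the CD11c subset, beside -0.02 and 0.00159 over all genes, so the list had no common direction.

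**Figure D1:**
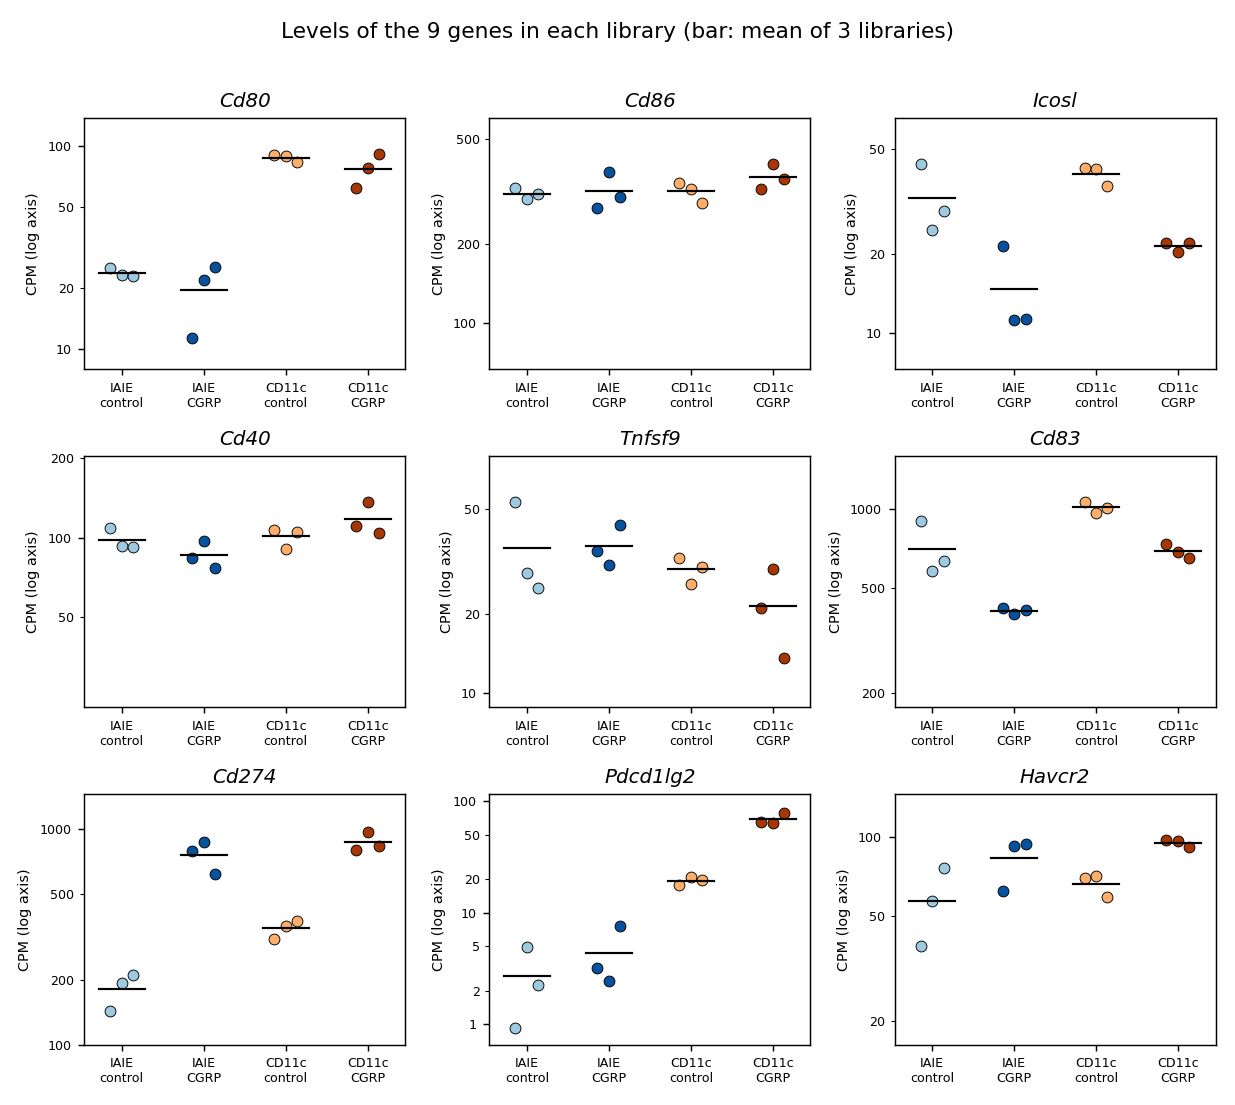
CPM on a log axis for each of the 9 genes in the 12 libraries, with points for the 3 libraries of a group in replicate order and a bar at their mean. *Cd274* stands at 620 to 978 CPM in the 6 CGRP libraries and at 143 to 376 CPM in the 6 control libraries, while the *Cd86* points of the 4 groups overlap.

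**Figure D2:**
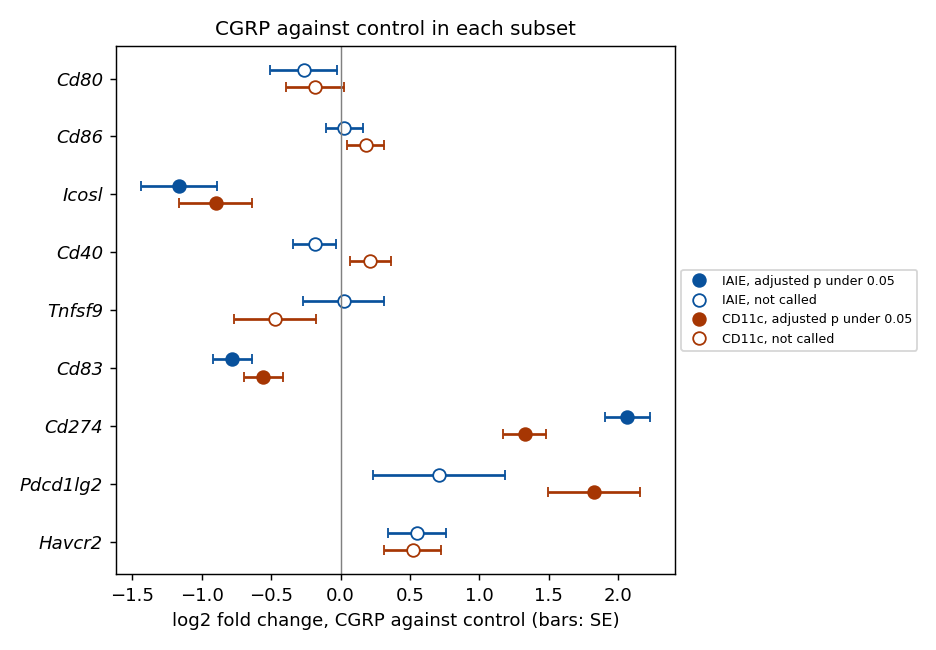
Log2 fold change of CGRP against control (x axis, bars are SE) for each gene in the IAIE and CD11c subsets, filled where the edgeR adjusted p was under 0.05. *Cd274* lies farthest to the right in the IAIE subset (2.07) and *Pdcd1lg2* in the CD11c subset (1.83), and *Icosl* lies farthest to the left in both (-1.16 and -0.90).

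Among the ligands of CD28 and its relatives, *Cd80* and *Cd86* did not pass the threshold in either subset and *Icosl* fell in both. *Cd80* (chr16:38455561-38496335, plus strand, mm10) was at 25.1, 23.2 and 22.8 CPM in IAIE control replicates 1 to 3 and at 11.4, 21.9 and 25.5 CPM with CGRP. In the CD11c subset it was at 90.2, 88.6 and 83.5 CPM in control and 62.1, 77.5 and 91.1 CPM in CGRP libraries. Control and CGRP libraries overlapped in both subsets, with replicate 1 the lowest of the CGRP libraries each time, and the log2 fold changes were -0.27 ± 0.24 (SE) in IAIE and -0.18 ± 0.21 in CD11c cells (edgeR adjusted p 0.585 and 0.691). The CGRP libraries were also more spread than the control libraries, with an SD of 7.31 against 1.23 CPM in the IAIE and 14.5 against 3.51 CPM in the CD11c subset. *Cd86* (chr16:36603869-36666081, minus strand), the more abundant CD28 ligand, was at 328, 296 and 309 CPM in control libraries of the IAIE subset and 276, 375 and 301 CPM with CGRP. CD11c cells had it at 343, 323 and 287 CPM without and 325, 402 and 353 CPM with CGRP. All 4 groups overlapped, with log2 fold changes of 0.03 ± 0.13 in IAIE and 0.18 ± 0.13 in CD11c cells (edgeR adjusted p 0.941 and 0.487).

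*Icosl* (chr10:78069302-78083913, plus strand), the ligand of ICOS, was at 43.7, 24.7 and 29.1 CPM in IAIE control libraries and at 21.4, 11.2 and 11.3 CPM with CGRP. CD11c cells had it at 42.4, 41.9 and 36.3 CPM in control and 22.1, 20.3 and 22.1 CPM in CGRP libraries. Every CGRP library lay below every control library of its subset. The log2 fold change was -1.16 ± 0.27 in IAIE (edgeR adjusted p 0.00961) and -0.90 ± 0.26 in CD11c cells (edgeR adjusted p 0.0322). These values rest on 46 to 179 counts per library. The call in CD11c cells was lost when any of their 6 libraries was left out (edgeR adjusted p 0.0509 to 0.0988). That in IAIE cells was lost without control replicate 1 (-0.87, edgeR adjusted p 0.0791), CGRP replicate 2 (edgeR adjusted p 0.0643) or CGRP replicate 3 (edgeR adjusted p 0.0610). Averaged over both subsets the fall was -1.03 ± 0.19 (edgeR adjusted p 0.000589) and it kept its call without any 1 library, at adjusted p-values of up to 0.00281. The summed B cell markers moved with it, at 66.4 to 137 against 30.2 to 53.9 CPM in IAIE and 11.6 to 17.8 against 1.96 to 7.86 CPM in CD11c libraries, and their part in the fall was not tested.

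Since *Cd80* and *Cd86* share their receptors, their ratio was taken within each library, where it does not depend on the scaling. On the log2 scale *Cd80* against *Cd86* stood at -3.70 ± 0.04 without and -4.08 ± 0.51 with CGRP in IAIE cells, and at -1.86 ± 0.07 without and -2.24 ± 0.25 with CGRP in CD11c cells (mean ± SD, n = 3). The ratio was lower with CGRP by about the same amount in both subsets (-0.37 and -0.38), although IAIE CGRP replicate 3, at -3.56, lay above all IAIE control libraries. The mean of both differences, -0.38, did not pass a two-sided exact permutation test within subsets (p = 0.055 over 400 arrangements, the smallest possible being 0.005). It fell on either side of the threshold with small changes of the test. The exact permutation p was 0.045 with a pseudocount of 3 in place of 0.5. Without IAIE CGRP replicate 3 it was 0.005 (difference -0.51), and without CD11c CGRP replicate 3 it was 0.025 (-0.45). When the mean of each replicate number over the 4 groups was subtracted first, the permutation gave p = 0.015. That value is not exact, and the numbers were taken to pair CGRP libraries only.

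Neither gene of the TNF family and its receptors passed the threshold with CGRP. *Cd40* (chr2:165055627-165072948, plus strand), the receptor through which T cells license presenting cells, was at 109, 93.2 and 91.8 CPM in IAIE control and 83.9, 97.4 and 76.9 CPM in IAIE CGRP libraries. CD11c cells had it at 107, 90.7 and 105 CPM in control and 111, 136 and 105 CPM in CGRP libraries. The groups overlapped in both subsets, and the estimates had opposite signs, -0.19 ± 0.15 in IAIE and 0.22 ± 0.15 in CD11c cells (edgeR adjusted p 0.535 and 0.451), a difference that did not pass either (interaction 0.40 ± 0.21, edgeR adjusted p 0.631). *Tnfsf9* (chr17:57105325-57107757, plus strand), which encodes 4-1BBL, was at 53.0, 28.7 and 25.1 CPM in control libraries of the IAIE subset and 34.7, 30.6 and 43.6 CPM with CGRP. CD11c cells had it at 32.6, 26.0 and 30.0 CPM without and 21.1, 29.5 and 13.5 CPM with CGRP. The groups overlapped in both subsets, with log2 fold changes of 0.02 ± 0.29 and -0.47 ± 0.29 (edgeR adjusted p 0.980 and 0.386). The predicted gene *Gm11110* overlaps 14.9% of its exonic length on the other strand and had at most 14 counts in a library.

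*Cd83* (chr13:43784775-43803132, plus strand), the maturation marker, had the highest CPM of the 9 genes in control libraries of both subsets and fell with CGRP in both. It was at 901, 579.7 and 632 CPM in IAIE control libraries and at 419, 398 and 414 CPM with CGRP. In the CD11c subset it was at 1060.3, 969 and 1011 CPM in control and 735, 684 and 649 CPM in CGRP libraries. Within each subset the groups were apart, and the CGRP libraries of the IAIE subset were close to each other (410.3 ± 10.9 CPM). The log2 fold change was -0.78 ± 0.14 in IAIE (edgeR adjusted p 0.00108) and -0.56 ± 0.14 in CD11c cells (edgeR adjusted p 0.0121), and the interaction was 0.22 ± 0.20 (edgeR adjusted p 0.832). Both calls held without any 1 library, at adjusted p-values of up to 0.00876 and 0.0469.

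The ligands of PD-1 showed the largest rises of the list. *Cd274* and *Pdcd1lg2* lie next to each other on chromosome 19, at chr19:29367455-29388095 and chr19:29410919-29471161 on the plus strand of mm10 (GENCODE M21), 22823 bp apart. Their promoters, 250 bases before the RefSeq start sites on GRCm38.p6, are shown because both genes rose and sit in tandem, with capitals marking the only motif match found in each among the 5 motifs searched on both strands. In *Cd274* (chr19:29367188-29367437, plus strand) the capitals mark an interferon-stimulated response element (ISRE) core (GAAANNGAA, here on the other strand), a match held by 7.13% of all 32851 promoters. In *Pdcd1lg2* (chr19:29410669-29410918, plus strand) they mark an NF-kB match, held by 7.25% of promoters. The other motifs searched were the GAS element (TTCNNNGAA, 7.02% of promoters), the CRE core (TGACGT, 6.47%) and AP-1 (TGANTCA, 6.75%). Of the genes of the list, 5 had a promoter entry and 4 had none. The entries not shown held matches too. *Icosl*, which fell in both subsets, had an NF-kB match. *Cd80*, which did not pass in either subset, and *Havcr2* had AP-1 matches. Whether a match goes with the direction of change was not tested.
Cd274: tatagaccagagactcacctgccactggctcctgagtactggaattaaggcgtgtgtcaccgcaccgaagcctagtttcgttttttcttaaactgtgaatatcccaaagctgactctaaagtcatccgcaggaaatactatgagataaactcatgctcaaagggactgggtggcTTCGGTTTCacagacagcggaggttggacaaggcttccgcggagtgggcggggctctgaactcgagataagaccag
Pdcd1lg2: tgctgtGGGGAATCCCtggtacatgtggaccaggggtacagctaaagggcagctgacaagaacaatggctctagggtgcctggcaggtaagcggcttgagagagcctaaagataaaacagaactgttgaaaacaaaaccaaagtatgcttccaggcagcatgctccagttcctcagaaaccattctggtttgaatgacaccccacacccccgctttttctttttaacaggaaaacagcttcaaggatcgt
A match describes these letters only and does not show that a factor binds there.

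*Cd274*, which encodes PD-L1, was at 143, 193 and 212 CPM in IAIE control libraries and at 795, 872 and 619.8 CPM with CGRP. CD11c cells had it at 310.4, 357 and 376 CPM in control and 802, 978 and 842 CPM in CGRP libraries. Every CGRP library of either subset lay above every control library of both. The rise was 4.19-fold in IAIE (log2 fold change 2.07 ± 0.16, edgeR adjusted p 5.61e-07) and 2.51-fold in CD11c cells (1.33 ± 0.16, edgeR adjusted p 1.16e-05), and in the IAIE subset it had the second smallest p of all 11927 genes. Without any 1 library the log2 fold change stayed between 1.92 and 2.21 in IAIE and between 1.24 and 1.36 in CD11c cells. The antisense gene *AC119228.1* overlaps 14.1% of the exonic length of *Cd274*. It has no row in the count files, and the strand setting of the counting is not stated, so reads of the pair cannot be told apart there.

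*Pdcd1lg2*, which encodes PD-L2, rose in CD11c cells and was low in IAIE cells. It was at 17.5, 20.8 and 19.7 CPM in CD11c control and 64.8, 64.1 and 77.9 CPM in CD11c CGRP libraries. In the IAIE subset it was at 0.931, 4.87 and 2.24 CPM in control and 3.18, 2.43 and 7.54 CPM in CGRP libraries, which rests on 3 to 40 counts a library. The CD11c groups were far apart and the IAIE groups overlapped. The log2 fold change was 1.83 ± 0.33 in CD11c cells (3.54-fold, edgeR adjusted p 0.000901) and 0.71 ± 0.48 in IAIE cells (edgeR adjusted p 0.425). The IAIE estimate ranged from 0.02 to 1.62 when 1 library was left out.

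The CGRP effects were then compared between subsets by the interaction, CD11c minus IAIE. None of the 9 genes passed in edgeR, where 0.151% of all genes did, and none passed in DESeq2 or limma-voom, while 1 gene, *Cd274*, had an unadjusted p under 0.05. Its interaction was -0.74 ± 0.22 (edgeR adjusted p 0.239), the estimate being smaller in CD11c cells. Though libraries of unlike numbers were not compared, CGRP libraries that carry 1 number deviated together in both subsets (correlations 0.332, 0.128 and 0.205). Control libraries of the same number hardly did (correlations 0.0966, 0.0195 and 0.0255 for replicates 1 to 3). Blocking on that number within each treatment, control as well as CGRP, brought the interaction of *Cd274* past the threshold (-0.74, edgeR adjusted p 0.0485). That of *Pdcd1lg2* had the opposite sign and did not pass (1.12 ± 0.59, edgeR adjusted p 0.631). On the within-library ratio of *Cd274* to *Pdcd1lg2*, the mean log2 value went from 6.24 ± 0.90 to 7.56 ± 1.08 in IAIE and from 4.16 ± 0.08 to 3.66 ± 0.25 in CD11c libraries, and the mean change over both subsets was 0.41 (two-sided exact permutation test, p = 0.41, smallest possible 0.005).

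*Havcr2* (chr11:46454935-46481255, plus strand), which encodes TIM-3, was at 38.5, 57.1 and 76.1 CPM in IAIE control and 62.5, 92.3 and 94.3 CPM in IAIE CGRP libraries. CD11c cells had it at 69.8, 71.1 and 59.2 CPM in control and 97.6, 96.8 and 91.8 CPM in CGRP libraries. The CD11c groups did not overlap, and in the IAIE subset CGRP replicate 1 lay below control replicate 3. Log2 fold changes were nearly equal, 0.55 ± 0.21 and 0.52 ± 0.20, and neither passed on its own (edgeR adjusted p 0.115 and 0.120). Their average, 0.53 ± 0.15, passed (edgeR adjusted p 0.0137) and kept its call without any 1 library, at adjusted p-values of up to 0.0430.

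How the subsets differ without and with CGRP was the next question. Among control libraries 4 of the 9 genes were higher in the CD11c subset and none lower, against 21.2% of all genes passing in either direction, and among CGRP libraries 4 were higher and none lower, against 16.9%. The 3 genes called in both treatments were *Cd80*, *Cd83* and *Pdcd1lg2*. Libraries of the subsets did not overlap for 4 genes in control, where 34.2% of all genes did not, and for 5 with CGRP, where 34.8% did not. The median log2 difference of the 9 genes was 0.30 in control and 0.45 in CGRP libraries, beside -0.02 and 0.00219 over all genes. The summed dendritic cell markers were higher and the summed macrophage markers lower in the CD11c subset in both treatments. Of the 9 dendritic cell markers tested, 4 were higher and 1 lower in control, and 3 higher and none lower with CGRP. All 9 macrophage markers were lower in control and 8 with CGRP. In CD11c CGRP libraries *Ccr7*, at a mean of 576 CPM, made up most of the dendritic cell sum of 737 to 839 CPM. The part of these markers in the differences between subsets was not tested. These comparisons use the same 12 libraries as the CGRP effects and are not independent of them.

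*Cd80* was 3.67-fold higher in CD11c than in IAIE control libraries (log2 difference 1.88 ± 0.23, edgeR adjusted p 9.47e-06) and 3.89-fold higher with CGRP (1.96 ± 0.23, edgeR adjusted p 4.78e-06), whereas *Cd86* did not pass (0.03 ± 0.13 and 0.18 ± 0.13, edgeR adjusted p 0.921 and 0.427). *Pdcd1lg2* differed most, by 2.80 ± 0.43 in control (edgeR adjusted p 9.33e-05) and 3.92 ± 0.38 with CGRP (edgeR adjusted p 4.60e-07). Its size changed with single libraries, being 3.69 without IAIE control replicate 2 and 4.61 without IAIE CGRP replicate 3. *Cd83* was higher by 0.53 ± 0.14 in control (edgeR adjusted p 0.0102) and 0.75 ± 0.14 with CGRP (edgeR adjusted p 0.000708), the first being lost without IAIE control replicate 2 (0.42, edgeR adjusted p 0.0589).

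*Cd274* was higher in the CD11c subset among control libraries (0.94 ± 0.16, edgeR adjusted p 0.000245), where the libraries did not overlap, and did not pass among CGRP libraries (0.20 ± 0.15, edgeR adjusted p 0.454), where they did. *Cd40* passed narrowly among CGRP libraries (0.45 ± 0.15, edgeR adjusted p 0.0471) and not among control libraries (0.04 ± 0.15, edgeR adjusted p 0.881). The *Cd40* call was lost in 8 of the 12 fits without 1 library, namely IAIE control replicates 2 and 3, CD11c control replicates 1 and 3, IAIE CGRP replicates 1 and 3, or CD11c CGRP replicates 1 and 2 (0.33 to 0.49, edgeR adjusted p 0.0529 to 0.232). *Tnfsf9* was the only gene of the list whose CD11c CGRP libraries all lay below its IAIE CGRP libraries, a difference of -0.78 ± 0.29 that did not pass (edgeR adjusted p 0.0769). *Icosl* and *Havcr2* did not pass in either treatment (edgeR adjusted p 0.185 to 0.592).

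**Figure D3:**
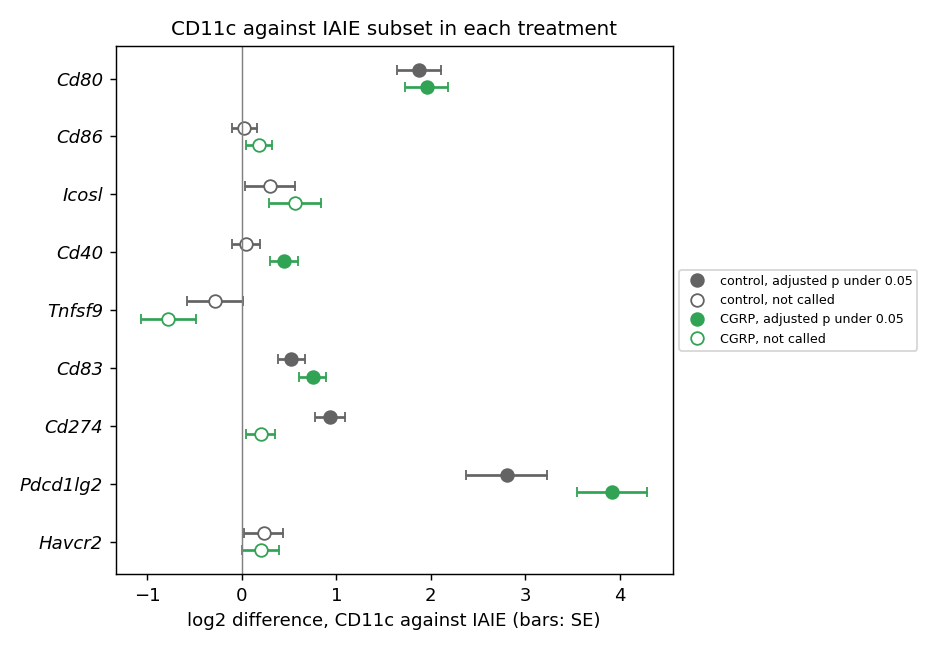
Log2 difference of the CD11c against the IAIE subset (x axis, bars are SE) in control and in CGRP libraries, filled where the edgeR adjusted p was under 0.05. *Pdcd1lg2* lies farthest to the right in both (2.80 and 3.92), and the *Cd274* point moves from 0.94 in control to 0.20 with CGRP.

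To compare levels between genes, CPM were divided by the exonic length of each gene in kb. In IAIE control libraries *Cd83* ranked first at 274 CPM per kb, before *Cd86* at 85.0 and *Cd274* at 50.4 CPM per kb. With CGRP *Cd274* ranked first there at 210.4 CPM per kb, above *Cd83* at 159.5 CPM per kb, with no overlap between the libraries of these neighbors. In CD11c control libraries *Cd83* stood at 394 CPM per kb, and *Cd274* at 96.0 overlapped with *Cd86* at 86.7 CPM per kb. With CGRP *Cd83* at 268 and *Cd274* at 241 CPM per kb overlapped. *Pdcd1lg2* ranked last of 9 in both IAIE groups (1.37 and 2.24 CPM per kb), at rank 8 in CD11c control (9.87 CPM per kb, overlapping with *Icosl* at 8.70) and at rank 4 in CD11c CGRP libraries (35.2 CPM per kb, overlapping with *Havcr2* at 35.1). *Cd80* stood at 6.41 CPM per kb in IAIE and 23.6 CPM per kb in CD11c control libraries, where it overlapped with *Havcr2* and *Tnfsf9*.

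**Figure D4:**
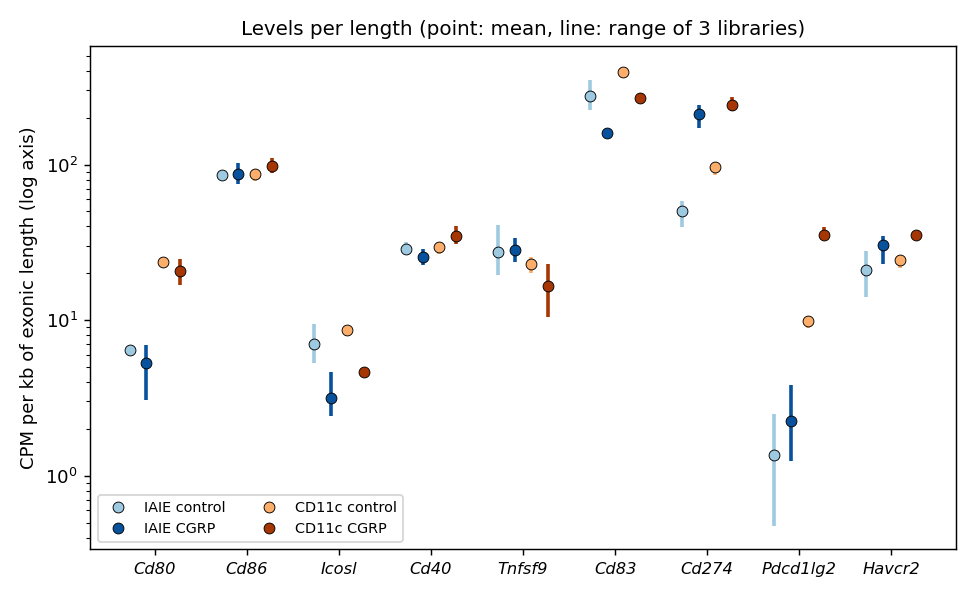
CPM per kb of exonic length on a log axis for the 9 genes in the 4 groups, with points at the mean and lines over the range of the 3 libraries. *Cd83*, *Cd86* and *Cd274* hold the highest levels in every group, and *Pdcd1lg2* spans the widest range between groups on the log axis, from 1.37 to 35.2 CPM per kb.

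Across the 4 groups the order of CPM followed several patterns. *Cd83* ran from CD11c control over IAIE control and CD11c CGRP to IAIE CGRP, with only the middle pair overlapping, and *Icosl* kept this order with only the middle pair apart. *Cd274* ran from CD11c CGRP over IAIE CGRP and CD11c control to IAIE control, with only the first pair overlapping. *Cd86*, *Cd40*, *Tnfsf9* and *Havcr2* had no pair of neighboring groups without overlap. As a description over the 12 libraries, which share subset and treatment, the gene whose log2 CPM was most like that of *Cd274* was *Vegfa*, an angiogenic growth factor (Pearson's r 0.979, Spearman's rho 0.895). For *Pdcd1lg2* it was *Itgb8*, an integrin subunit (0.980 and 0.958), followed by *Socs2*, a cytokine signaling inhibitor, and *Runx3*, a transcription factor (r 0.975 and 0.971). *Cd80* was most like *Fscn1*, the actin bundling protein of mature dendritic cells (0.982 and 0.860). For *Cd83* these genes included *Glud1*, which encodes glutamate dehydrogenase, (0.960 and 0.860) and the MHCII peptide loading gene *H2-DMb1* (0.956 and 0.930), and for *Icosl* the junction gene *Jup* led (0.948 and 0.979). *Cd86* and *Cd40* had no gene above r 0.869.

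Receptors and relatives of the 9 genes were examined in lists, beside 9.21% of all genes tested passing in IAIE and 10.9% in CD11c cells. Of 16 lymphocyte receptors 6 passed the filter on low counts, and 1 rose in the IAIE subset while 1 rose and 1 fell in the CD11c subset. *Tnfrsf9*, which encodes 4-1BB, the receptor of the *Tnfsf9* product, was at 8.996, 4.587 and 3.133 CPM in IAIE control and 49.0, 26.0 and 45.4 CPM in IAIE CGRP libraries, and at 37.9, 36.5 and 41.6 CPM in CD11c control and 292, 222 and 298 CPM in CD11c CGRP libraries. The groups were far apart in both subsets and the rise was the same in size, 2.80 ± 0.30 in IAIE (6.95-fold, edgeR adjusted p 6.21e-06) and 2.80 ± 0.23 in CD11c cells (6.98-fold, edgeR adjusted p 3.73e-07). *Cd226*, an activating receptor for nectin family ligands, fell in CD11c cells from 54.9 ± 10.7 to 17.6 ± 2.31 CPM (-1.64 ± 0.39, edgeR adjusted p 0.00847). *Pdcd1*, which encodes PD-1, did not pass the filter and had at most 9 counts in a library.

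Of 22 other adhesion and checkpoint genes 20 were tested, and 3 rose and 3 fell in IAIE while 4 rose and 2 fell in CD11c cells (median log2 fold change -0.14 and -0.11). *Lgals9*, which encodes galectin-9, a ligand of TIM-3, rose in IAIE from 60.8 ± 7.78 to 157 ± 22.4 CPM (1.36 ± 0.19, edgeR adjusted p 0.000140) and in CD11c cells from 37.4 ± 4.21 to 107 ± 29.1 CPM (1.52 ± 0.20, edgeR adjusted p 3.44e-05). *Lgals3*, another galectin, rose as well (0.63 ± 0.11 and 0.35 ± 0.11, edgeR adjusted p 0.000637 and 0.0382), and *Lilrb4a*, an inhibitory receptor, fell in both (-0.64 ± 0.14 and -0.64 ± 0.15, edgeR adjusted p 0.00707 and 0.00586). *Cd200r1*, an inhibitory receptor, rose in IAIE cells (0.96 ± 0.18, edgeR adjusted p 0.00131) and was at -0.09 ± 0.17 in CD11c cells (0.832). Its ligand *Cd200* (1.44 ± 0.40, edgeR adjusted p 0.0233) and the phagocytosis checkpoint receptor *Sirpa* (0.46 ± 0.12, 0.0183) rose in CD11c cells, and in IAIE cells *Cd200* was at 1.51 ± 0.50 without overlap of the libraries (0.0681) and *Sirpa* at -0.10 ± 0.12 (0.702). Of 9 other B7 and butyrophilin family genes 3 were tested, and in CD11c cells *Vsig4* rose (1.02 ± 0.30, edgeR adjusted p 0.0304) and *Vsir*, which encodes VISTA, fell (-0.74 ± 0.23, 0.0459), with none past the threshold in IAIE cells. There *Vsig4* was at 0.85 ± 0.29 without overlap of the libraries (edgeR adjusted p 0.0730) and *Vsir* at -0.42 ± 0.23 with overlap (0.302). Of 15 other TNF superfamily ligands 9 were tested. *Tnfsf10*, which encodes TRAIL, rose in IAIE from 0.310, 1.43 and 3.58 to 16.1, 22.4 and 11.7 CPM (edgeR adjusted p 0.00296) and in CD11c cells from 0, 1.40 and 0.215 to 3.64, 3.47 and 4.63 CPM (edgeR adjusted p 0.0291). Both rises started near the floor, with at most 8 counts in an IAIE control and 6 in a CD11c control library. *Tnf* rose in CD11c cells (0.59 ± 0.18, edgeR adjusted p 0.0361).

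All 20 genes of the interferon receptor and JAK-STAT list were tested, and 6 rose and 4 fell in IAIE while 7 rose and 3 fell in CD11c cells (median 0.05 and 0.08). The transcription factors *Irf7* (2.33 ± 0.30 and 2.46 ± 0.30, edgeR adjusted p 4.77e-05 and 1.92e-05) and *Irf9* (1.40 ± 0.22 and 1.32 ± 0.22, 0.000322 and 0.000336) rose in both subsets. The kinase *Jak1* (-0.70 ± 0.13 and -0.85 ± 0.13, edgeR adjusted p 0.00118 and 0.000150) and *Irf4*, a factor of dendritic and B cells (-0.81 ± 0.16 and -1.12 ± 0.15, 0.00200 and 4.93e-05), fell in both. Of 20 genes of CD40 and NF-kB signaling, all tested, 1 rose and 4 fell in IAIE and 1 rose in CD11c cells (median 0.06 and -0.10). *Ikbkg*, the regulatory subunit of the IκB kinase, rose in both (1.43 ± 0.17 and 0.95 ± 0.17, edgeR adjusted p 2.19e-05 and 0.000739). The NF-kB subunits *Nfkb1* (-0.96 ± 0.11, edgeR adjusted p 1.78e-05), *Rel* (-0.69 ± 0.14, 0.00259) and *Nfkb2* (-0.59 ± 0.13, 0.00690) and the adaptor *Traf5* (-0.80 ± 0.24, 0.0390) fell in IAIE cells. None of them passed in CD11c cells, though their means were lower with CGRP there too. *Traf5* (29.6 to 18.4 CPM) and *Rel* (752 to 584 CPM) had no overlap of the libraries. *Nfkb2* went from 454 to 414 CPM and *Nfkb1* from 1093 to 1040 CPM.

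Of 16 dendritic cell maturation genes 15 were tested, and 4 rose and 1 fell in IAIE while 8 rose in CD11c cells (median 0.06 and 1.26). *Ccr7*, the receptor that guides mature dendritic cells to lymph nodes, rose in CD11c cells from 240.0 ± 33.4 to 576 ± 53.9 CPM (1.26 ± 0.17, edgeR adjusted p 5.32e-05) and was at 42.3 ± 10.5 and 43.5 ± 10.1 CPM in IAIE cells. The chemokines *Ccl22* (3.81 ± 0.48 and 1.55 ± 0.30, edgeR adjusted p 3.32e-05 and 0.00149) and *Ccl5* (1.85 ± 0.40 and 1.92 ± 0.39, 0.00538 and 0.00250) rose in both subsets. *Il15ra*, the receptor chain that presents interleukin-15, rose in both, with overlapping libraries in IAIE cells (2.22 ± 0.63 and 2.25 ± 0.59, edgeR adjusted p 0.0303 and 0.0165), and *Marcksl1* fell in IAIE cells (-0.63 ± 0.16, 0.0186). *Cacnb3*, a calcium channel subunit, rose in CD11c cells (2.93 ± 0.50, edgeR adjusted p 0.000739) and in IAIE cells from 0 in all control libraries to 1.85, 3.40 and 12.1 CPM (edgeR adjusted p 0.00308), at least 5.53-fold against a floor of 3 counts in each control library. Of 10 MHC class II genes, all tested, none rose and 6 fell in IAIE and 7 in CD11c cells (median -0.80 and -0.88). The peptide loading genes *H2-DMb1* (-1.73 ± 0.22 and -1.40 ± 0.20, edgeR adjusted p 3.31e-05 and 6.95e-05), *H2-DMa* (-1.16 ± 0.21 and -1.45 ± 0.20, 0.00101 and 4.99e-05) and *H2-DMb2* (-1.97 ± 0.43 and -1.67 ± 0.34, 0.00554 and 0.00267) fell in both subsets. The MHCII chains *H2-Ab1* (-0.74 ± 0.11 and -0.66 ± 0.11, edgeR adjusted p 0.000316 and 0.000574), *H2-Aa* (-0.76 ± 0.13 and -0.61 ± 0.13, 0.000878 and 0.00420) and *H2-Eb1* (-0.74 ± 0.12 and -0.58 ± 0.12, 0.000516 and 0.00289) fell in both, in cells sorted on MHCII protein.

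**Figure D5:**
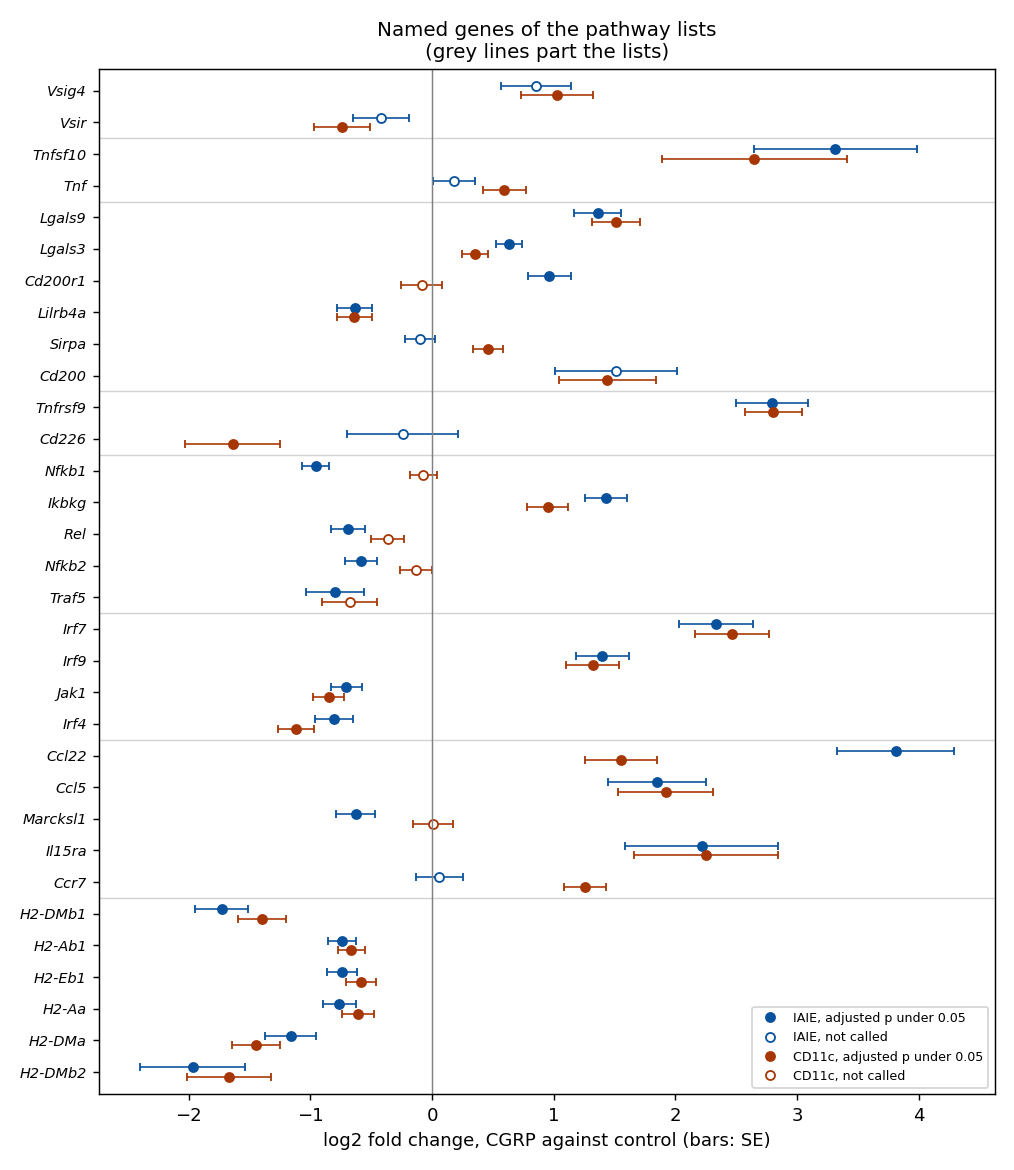
Log2 fold change of CGRP against control (x axis, bars are SE) for the named genes of the pathway lists in both subsets, filled where the edgeR adjusted p was under 0.05, with grey lines between the lists. *Tnfrsf9* lies at 2.80 in both subsets, and the MHC class II genes at the bottom all lie to the left of 0. *Cacnb3* is left out because its IAIE control libraries were all at 0.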

How the data were processed

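Synovial macrophages of 4 groups, 3 libraries each, were profiled by bulk RNA-seq (SMARTer stranded total RNA pico kit, NovaSeq). Per the methods, the authors trimmed reads with Trim Galore, checked them with FastQC, aligned them to mm10 with HISAT2 and counted them with featureCounts. Tool versions, the gene annotation and how strand was counted are not given in the sources used here. What the authors deposited were counts of reads for each gene symbol, as whole numbers without normalization. A table of the whole series held the same values for the 12 libraries, and 6 other columns in it went unused. The methods do not say whether molecular identifiers were used in the counts, so the floor of 3 counts was taken to cover counting error only.

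Genes that passed filterByExpr of edgeR (minimum count 10, minimum total 15) were scaled by TMM and tested with edgeR 4.0.16 (R 4.3.3) by the quasi-likelihood F test over all 12 libraries with 1 mean per group, and p-values were adjusted by Benjamini-Hochberg over 11927 genes. A gene passed at an adjusted p under 0.05. SE is the log2 fold change divided by the root of F. Ratios used counts + 0.5. Other fits used RLE and upper-quartile scaling, other filters, DESeq2 1.42.0, limma-voom 3.58.1, 1 surrogate variable (sva 3.50.0), thinning, blocks, the compared libraries alone and leaving out each library. The study's own analysis used DESeq2 with sva. The tests were checked on simulated counts.

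As a check of pairing, each library's deviation from its group mean was correlated with that of the library with the same number, over 5411 genes. With CGRP, the IAIE and CD11c libraries gave 0.332, 0.128 and 0.205, and the numbers were taken to pair them. Libraries of unlike numbers were not compared, so this pairing is an assumption. No other comparison had every correlation over 0.1, though CD11c control against CD11c CGRP libraries gave 0.187, 0.115 and -0.0122.

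The 9 genes and all lists were chosen with earlier results of these data known. All 9 are named, and from each pathway list, per subset, up to 4 genes past the threshold with the smallest p and a mean of at least 5 CPM, or all genes past it where 5 or fewer passed. *Pdcd1*, *Csf1r* and *Cd68* are named outside this rule, after their values were seen, and for some genes picked in 1 subset values of the other are given too. A gene picked by this rule is not reported here. The genes most like a member were taken from the 3 highest Pearson correlations of log2(CPM + 1), predicted genes left out, at a mean of at least 10 CPM. Gene positions are from GENCODE M21 and promoters from RefSeq on GRCm38.p6.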

Additional observations from a re-analysis of the deposited data

How the results depend on the processing

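Over all alternatives the number of the 9 genes called ranged from 2 to 4 for CGRP in the IAIE subset, 3 to 5 in the CD11c subset, 4 to 5 for the mean of the subsets, 3 to 4 between subsets in control and 3 to 5 with CGRP. For the mean of the subsets, the count of 4 came from the filter of 10 counts in every library, which left *Pdcd1lg2* untested. All 5 calls held in every fit that tested them. The interaction count was 1 (*Cd274*) without a low-count filter (-0.81, edgeR adjusted p 0.00911) and with the replicate block within treatment, whereas DESeq2 gave an adjusted p of 0.0949. The replicate block changed no other call of a gene. Of single-gene results, 522 kept direction and side of the threshold in the other fits, 3 were lost, 8 gained and 10 reversed, and with 1 library left out these numbers were 608, 18, 5 and 17. The cause was not tested.

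Every reversal was of a value that had not passed. For CGRP in IAIE cells upper-quartile scaling gave -0.0264 for *Cd86* and -0.0306 for *Tnfsf9*, and leaving out 1 library gave -0.50 to 0.0103 for *Cd80*, -0.10 to 0.13 for *Cd86* and -0.14 to 0.44 for *Tnfsf9*. For the mean of the subsets *Cd40* was at -9.52e-05 with RLE scaling, -0.0378 with upper-quartile scaling, -0.000262 with 10 counts in every library, -0.000558 in DESeq2, -0.00563 after thinning, and -0.0414 to 0.0585 without 1 library. For the interaction limma-voom gave 0.0351 for *Havcr2*, thinning gave -0.0628 for *Cd80*, and leaving out 1 library gave -0.19 to 0.32 for *Cd80*, -0.00158 to 0.31 for *Cd83*, -0.0253 to 0.62 for *Icosl* and -0.31 to 0.18 for *Havcr2*. Between subsets in control libraries *Cd86* was at -0.000772 with 1 surrogate variable and at -0.0172 to 0.14 without 1 library, and *Tnfsf9* at -0.46 to 0.13 without 1 library.

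The log2 ratio of *Cd80* to *Cd86* was -0.38 with a pseudocount of 3 (exact permutation p = 0.045) and -0.51 to -0.25 without 1 library. After the mean of each replicate number was subtracted it was -0.38 (permutation p = 0.015, not exact). The *Cd40* difference between subsets with CGRP was also lost without a low-count filter, with 1 surrogate variable and after thinning (edgeR adjusted p 0.0890, 0.0726 and 0.0818). *Tnfsf9* gained that call without the filter (0.0283), in limma-voom (0.0177), after thinning (0.0497) and without IAIE control replicate 1 (0.0435) or CD11c CGRP replicate 2 (0.0260), and *Icosl* gained it without IAIE CGRP replicate 1 (0.0341). *Havcr2* gained its CGRP call in IAIE cells without the filter (0.0207), IAIE control replicate 3 (0.0210) or IAIE CGRP replicate 1 (0.0438), and in CD11c cells in limma-voom (0.0497) and with these libraries fitted alone (0.0249). *Pdcd1lg2* in IAIE cells had 3 to 40 counts per library, and its CGRP effect ranged from 0.02 to 1.62 without 1 library.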
